A study of Oryctolagus cuniculus with 16 samples.

Results

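The DNA damage response and repair genes described here are 42 genes of recombination, the Fanconi anemia pathway, end joining, mismatch repair and checkpoint signaling, chosen by gene symbol. Of these, 41 were found among the 20255 genes of the deposited table, and all 41 passed the filter on low counts. *EXO1* was not analysed here. The rule itself uses symbols only, but the genes were chosen with earlier results of these data known, so their share of lower genes is a description.

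Total RNA was sequenced from the femoral head, the ball of the hip joint, of 5 rabbits with Perthes disease and 3 wild type control rabbits, after removal of ribosomal RNA. The model was made in 8-week-old rabbits by tying off the femoral neck and cutting the ligamentum teres, which interrupts the blood flow to the femoral head. The age at sampling and any sham operation of the controls are not given in the sources used here. Each library came from 1 rabbit, and the libraries held 26757087 to 29461482 counts. Transcripts of cartilage and bone were present in every library: the 6 chondrocyte markers, led by *COL2A1*, summed to between 34370 and 139600 CPM (counts scaled to a common library total), and the 8 osteoblast and osteocyte markers, led by *IBSP*, to between 1139 and 3048 CPM.

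Cells meet DNA breaks by several routes. Homologous recombination copies an intact sister chromatid and works mainly while cells replicate, whereas nonhomologous end joining ligates broken ends directly in any phase of the cell cycle. The Fanconi anemia pathway unhooks crosslinks between DNA strands, mismatch repair corrects errors left by the replication machinery, and the kinases *ATM* and *ATR* halt the cycle while repair proceeds. In blood-forming marrow, the Fanconi genes are best known because their inherited loss leads to marrow failure, and many recombination genes are transcribed chiefly in dividing cells.

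Expression of many, but not all, of the repair genes was lower in the Perthes femoral heads, in a count that depended on single rabbits. The lowest medians were those of the genes that act on joint DNA molecules and in homologous recombination. No nonhomologous end-joining gene passed the edgeR test, and 1, *PRKDC*, passed in DESeq2. Differences between these roles were not tested. Of the 41 genes, 20 fell in Perthes disease and 0 rose at an adjusted p below 0.05 in edgeR's quasi-likelihood test, which was adjusted over all 15305 genes tested. The count of genes that rose was 0 by DESeq2 and at an unadjusted p below 0.05 as well. Over all genes tested, 8.86% fell and 6.21% rose, against 48.8% of the repair genes that fell. These were 1356 and 951 genes, and with library totals in place of TMM factors 1705 and 678. The log2 fold change of Perthes disease against control was negative for 37 genes and positive for 4, namely *FANCE*, *ATM*, *XRCC5* and *NBN*, and its median was -0.72, against 0.02 over all genes tested. The 20 genes that fell ranged from 1.496-fold to 3.59-fold lower, and 15 of them lay beyond a log2 fold change of -1. In 25 of the 41 genes every Perthes rabbit was below every control rabbit, an arrangement found for 13.9% of all genes tested, and in 0 genes was every Perthes rabbit above every control rabbit, against 11.2% of all genes. Among the 21 genes that did not pass, the smallest adjusted p was 0.0524, for *TOPBP1*, and 7 had an unadjusted p below 0.05. The number of genes that fell depended on single rabbits. It was 4 without control rabbit 1 (*BRCA1*, *FANCM*, *BLM* and *GEN1*), 13 without Perthes rabbit 3 and 11 without Perthes rabbit 5. Without control rabbit 2 the edgeR count was 0, with 25 genes at an unadjusted p below 0.05, all of them lower, and the count over all genes tested was 0 as well. The smallest adjusted p over all genes in that edgeR fit was 0.0519, and the median log2 fold change of the 41 genes was -0.70. With all 8 libraries DESeq2 called 25 genes lower, namely all 20 and *TOPBP1*, *PRKDC*, *BRIP1*, *XRCC2* and *FANCI*. As femoral head tissue was sequenced in bulk, fewer cells that express a gene and less RNA per cell cannot be told apart. Each library came from another rabbit, so each p-value weighs the group difference against the spread between rabbits of the same group. In edgeR that spread is estimated in part from the other genes tested.

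**Figure D1:**
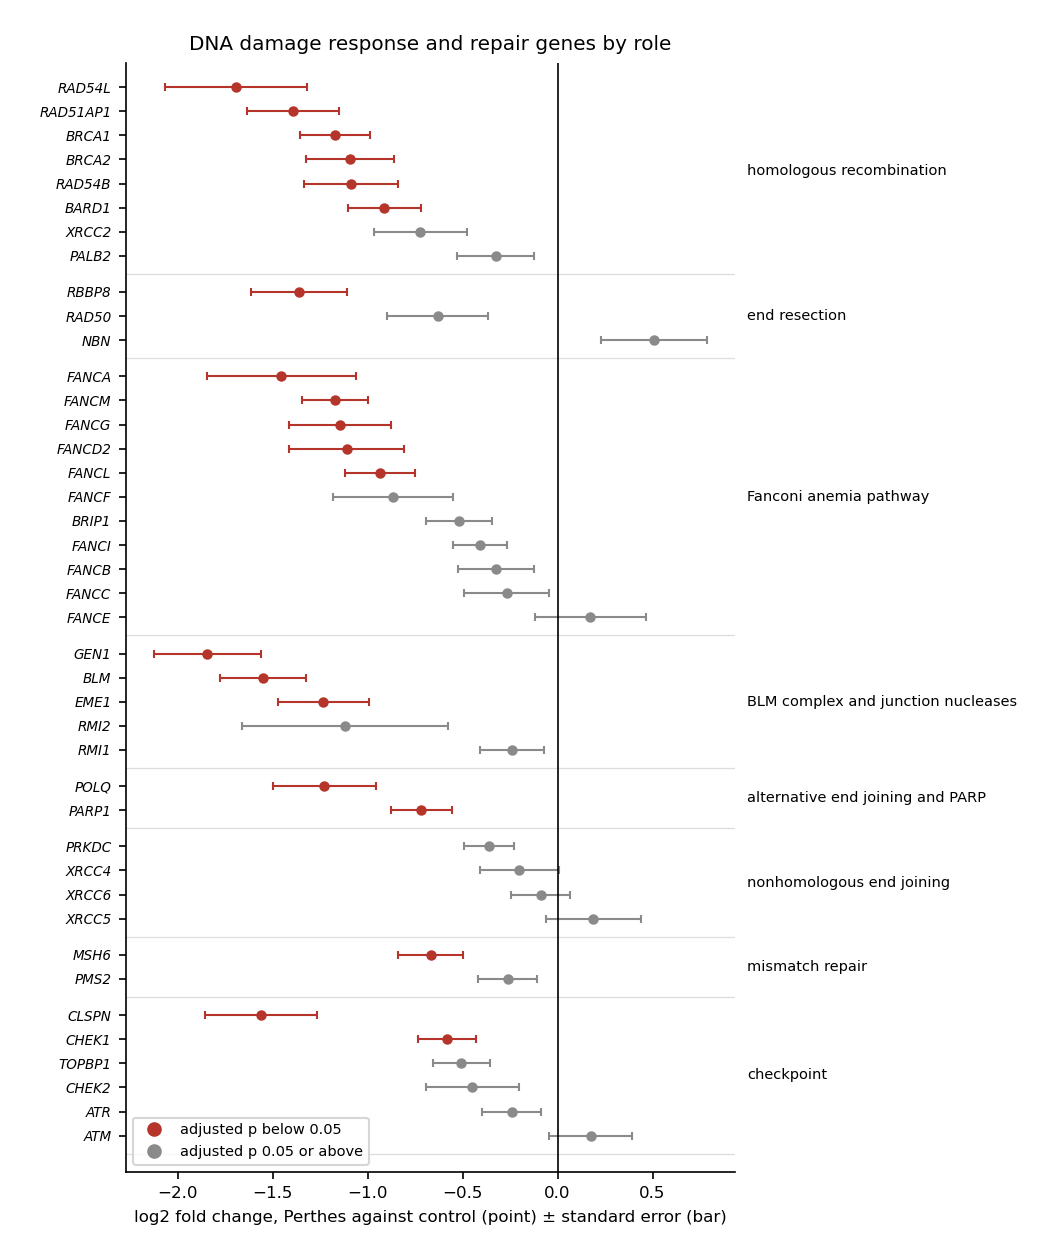
Log2 fold change of Perthes disease against control (x axis) for each of the 41 genes, grouped by role, with bars for the standard error, red for an adjusted p below 0.05 and gray otherwise. All 20 red points lie left of 0, between -1.84 for *GEN1* and -0.58 for *CHEK1*.

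Among the 8 genes of homologous recombination, 6 fell, and the median log2 fold change was -1.09. The count was 4 without Perthes rabbit 5, 1 without control rabbit 1 and 0 without control rabbit 2. *BRCA1*, a ubiquitin ligase that directs breaks into recombination, was measured at 8.82, 11.3, 9.03, 13.7 and 9.22 CPM in Perthes rabbits 1 to 5 and at 23.9, 23.2 and 23.4 CPM in control rabbits 1 to 3. The 3 controls lay close together, and the highest Perthes rabbit was still well below them. The log2 fold change was -1.17 (SE 0.18, adjusted p = 0.0120). *BARD1*, the obligate partner of *BRCA1*, stood at 15.4, 14.5, 12.3, 18.9 and 10.9 CPM in Perthes rabbits 1 to 5 and at 25.2, 28.1 and 28.1 CPM in the controls. Its groups were also separate, with a log2 fold change of -0.91 (SE 0.19, adjusted p = 0.0182). *BRCA2*, a mediator of recombination on single-stranded DNA, was measured at 21.2, 13.2, 11.8, 19.4 and 12.2 CPM in Perthes rabbits 1 to 5 and at 35.4, 29.1 and 35.0 CPM in the controls. Perthes rabbits 1 and 4 were the nearest to the controls without reaching them, and the log2 fold change was -1.09 (SE 0.23, adjusted p = 0.0182). *PALB2*, which bridges *BRCA1* and *BRCA2*, had overlapping groups, with 6.13 to 9.997 CPM in Perthes disease and 8.22 to 9.77 CPM in the controls, and a log2 fold change of -0.33 (adjusted p = 0.301).

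Of the 4 genes that promote strand pairing, 3 fell. *RAD51AP1*, which stimulates strand invasion, was measured at 2.47, 3.37, 2.68, 3.64 and 2.14 CPM in Perthes rabbits 1 to 5 and at 9.29, 6.42 and 6.82 CPM in the controls. Every Perthes value was below every control value, and the log2 fold change was -1.39 (SE 0.24, adjusted p = 0.0133). *RAD54L*, a DNA translocase that helps DNA strands pair, was at 3.28, 10.6, 4.85, 8.88 and 4.32 CPM in Perthes rabbits 1 to 5 and at 25.8, 18.8 and 17.4 CPM in the controls. Perthes rabbits 2 and 4 were the high ones of their group, and the spread within Perthes disease was wide, yet the groups did not overlap (log2 fold change -1.69, SE 0.38, adjusted p = 0.0211). *RAD54B*, a relative of *RAD54L*, was at 4.796, 4.68, 2.31, 4.55 and 3.74 CPM against 8.86, 8.43 and 8.35 CPM in the controls. Here Perthes rabbit 3 was the low one, and the log2 fold change was -1.09 (SE 0.25, adjusted p = 0.0228). *XRCC2*, which promotes strand pairing, was listed at 1.53 to 1.83 CPM in Perthes disease and 2.20 to 3.47 CPM in the controls. Its groups did not overlap, but the difference did not pass the test (log2 fold change -0.72, adjusted p = 0.0770).

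**Figure D2:**
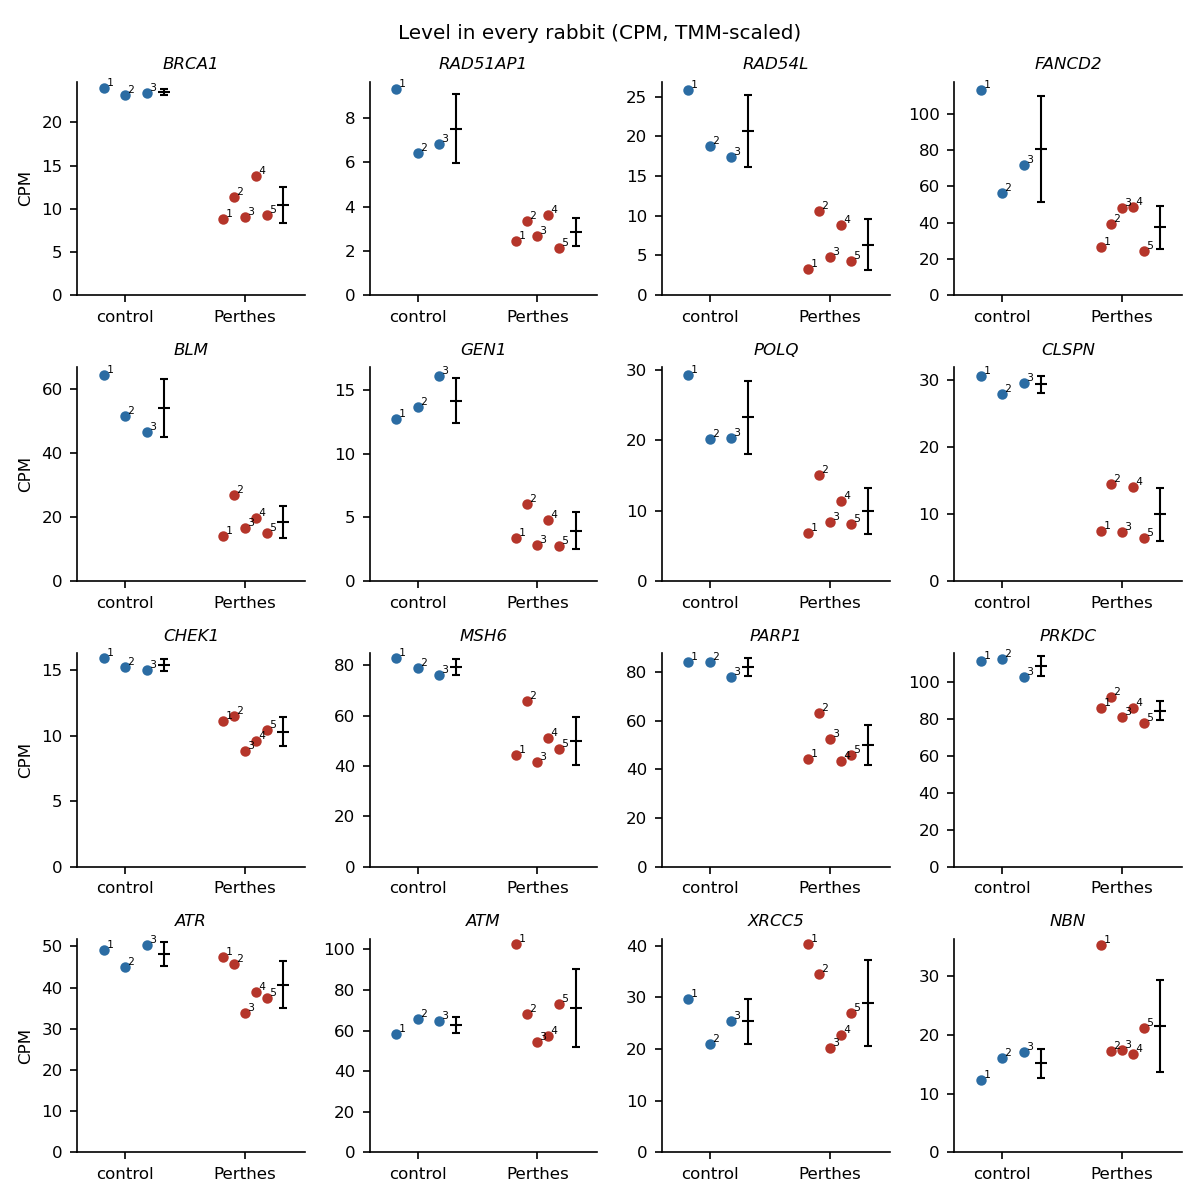
Level of 16 of the genes in every rabbit, in CPM scaled by TMM factors (y axis, from 0), with blue points for controls, red points for Perthes disease, the rabbit's number beside its point and a bar for the mean ± SD of each group. The groups are separate from *BRCA1* through *PRKDC* and overlap for *ATR*, *ATM*, *XRCC5* and *NBN*, in the latter 3 of which Perthes rabbit 1 is the highest of all.

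Of the 3 genes of end resection, the trimming of break ends that opens the way to recombination, 1 fell, with 2 without Perthes rabbit 1 and 0 without control rabbit 1 or 2. *RBBP8* encodes CtIP, which starts the trimming, and was measured at 8.68, 14.9, 6.94, 9.35 and 7.18 CPM in Perthes rabbits 1 to 5 and at 22.3, 25.6 and 24.7 CPM in the controls. Perthes rabbit 2 was the highest of its group and remained below all controls (log2 fold change -1.36, SE 0.25, adjusted p = 0.0138). *RAD50* and *NBN* belong to the same complex, which binds the broken end. *RAD50* was at 24.7, 13.3, 11.2, 14.8 and 14.7 CPM in Perthes rabbits 1 to 5 and at 18.5, 26.6 and 28.1 CPM in the controls, with a log2 fold change of -0.63 (SE 0.27, adjusted p = 0.138). *NBN* was at 35.2, 17.1, 17.4, 16.8 and 21.2 CPM in Perthes rabbits 1 to 5 and at 12.3, 16.1 and 17 CPM in the controls, with a log2 fold change of 0.51 (SE 0.28, adjusted p = 0.242). Perthes rabbit 1 was far above the other Perthes rabbits in both genes. Without it *RAD50* fell, with a log2 fold change of -0.85 (adjusted p = 0.0317), and *NBN* stood at 0.26 (adjusted p = 0.340). *RAD50* and *NBN* overlapped between groups.

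In the Fanconi anemia pathway, 5 of the 11 genes fell, and the median log2 fold change was -0.87. The count was 3 without Perthes rabbit 3, 2 without Perthes rabbit 5, 1 without control rabbit 1 and 0 without control rabbit 2. *FANCA*, of the core complex that marks *FANCD2* with ubiquitin, was measured at 3.68, 12.8, 8.96, 10.4 and 6.57 CPM in Perthes rabbits 1 to 5 and at 33.7, 21.8 and 14.1 CPM in the controls. The controls spread more than 2-fold and the lowest of them came close to Perthes rabbit 2 (log2 fold change -1.45, SE 0.39, adjusted p = 0.0386). *FANCG*, also of the core complex, was at 4.09, 9.25, 8.004, 6.51 and 5.82 CPM in Perthes rabbits 1 to 5 and at 18.6, 13.5 and 12.6 CPM in the controls. Perthes rabbit 2 was again the highest of its group, below all controls, and the log2 fold change was -1.15 (SE 0.27, adjusted p = 0.0247). *FANCL*, the ubiquitin ligase subunit, was at 5.88, 6.59, 4.55, 5.20 and 4.70 CPM in Perthes rabbits 1 to 5 and at 10, 9.73 and 11.1 CPM in the controls. These values varied little within either group (log2 fold change -0.93, SE 0.18, adjusted p = 0.0156). *FANCM*, a translocase that recruits the core complex to DNA, was at 5.91, 6.59, 5.58, 6.37 and 5.51 CPM in Perthes rabbits 1 to 5 and at 16.3, 12.1 and 12.2 CPM in the controls. The 5 Perthes rabbits lay within 1.20-fold of each other, the narrowest Perthes range among the genes that fell, and the log2 fold change was -1.17 (SE 0.17, adjusted p = 0.0118).

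*FANCD2*, which forms with *FANCI* the clamp that the core complex ubiquitinates, was measured at 26.4, 39.2, 48.3, 48.8 and 24.2 CPM in Perthes rabbits 1 to 5 and at 113.5, 56.5 and 72.0 CPM in the controls. Control rabbit 1 stood well above the other controls, and the adjusted p of 0.0401 was the largest among the 20 genes that fell (log2 fold change -1.11, SE 0.30). *FANCI*, its partner, had separate groups at 12.7 to 16.0 CPM and 18.4 to 20.7 CPM, without passing the test (log2 fold change -0.41, adjusted p = 0.0847). *BRIP1*, a helicase that binds *BRCA1*, was likewise separate, at 6.94 to 9.56 CPM against 11.83 to 11.95 CPM, and did not pass (log2 fold change -0.52, adjusted p = 0.0749). The groups of the other core complex genes overlapped. Their log2 fold changes were -0.87 for *FANCF* (adjusted p = 0.0935), -0.32 for *FANCB* (adjusted p = 0.296) and -0.27 for *FANCC* (adjusted p = 0.439). *FANCE*, also of the core complex, was at 1.42, 2.21, 2.53, 1.71 and 2.11 CPM in Perthes rabbits 1 to 5 and at 2.14, 1.34 and 1.83 CPM in the controls. The groups were intermixed, and the log2 fold change was 0.17 (SE 0.29, adjusted p = 0.717).

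The helicase and nucleases that take apart joint DNA molecules held the gene with the lowest log2 fold change of all 41, and 3 of these 5 genes fell, all but *EME1* also without control rabbit 1 and none of them without control rabbit 2. *GEN1*, a nuclease that cuts crossed strands, was measured at 3.34, 6.07, 2.83, 4.77 and 2.76 CPM in Perthes rabbits 1 to 5 and at 12.7, 13.7 and 16.1 CPM in the controls. The Perthes mean was 27.9% of the control mean (log2 fold change -1.84, SE 0.28, adjusted p = 0.0118). *BLM*, the helicase that is lost in Bloom syndrome, was at 14.1, 26.7, 16.6, 19.6 and 15.0 CPM in Perthes rabbits 1 to 5 and at 64.1, 51.4 and 46.3 CPM in the controls. Perthes rabbit 2 was the highest of its group and still far from the lowest control (log2 fold change -1.55, SE 0.23, adjusted p = 0.0118). *EME1*, the partner of the nuclease *MUS81*, was at 3.85, 5.92, 5.03, 6.003 and 3.81 CPM in Perthes rabbits 1 to 5 and at 14.9, 10.1 and 9.74 CPM in the controls. Its groups were separate, with a log2 fold change of -1.23 (SE 0.24, adjusted p = 0.0150). *RMI1* and *RMI2*, which bind *BLM*, did not pass. *RMI1* overlapped between groups at 9.91 to 14.4 CPM and 14.2 to 15.4 CPM (log2 fold change -0.24, adjusted p = 0.362). *RMI2* overlapped at 1.11 to 5.39 CPM and 4.29 to 11.2 CPM (log2 fold change -1.12, SE 0.54, adjusted p = 0.188). The log2 fold change of *RMI2* ranged from -1.43 to -0.50 over the 14 alternatives.

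Both genes of alternative end joining and poly(ADP-ribose) signaling fell. Neither passed without Perthes rabbit 3, Perthes rabbit 5, control rabbit 1 or control rabbit 2, although both had an unadjusted p below 0.05 each time. *POLQ*, the polymerase that joins ends through short stretches of homology, was measured at 6.75, 15.0, 8.45, 11.3 and 8.14 CPM in Perthes rabbits 1 to 5 and at 29.3, 20.2 and 20.4 CPM in the controls. Perthes rabbit 2 was once more the highest of its group (log2 fold change -1.23, SE 0.27, adjusted p = 0.0210). *PARP1*, which senses strand breaks, was at 44.5, 63.3, 52.6, 43.4 and 46.1 CPM in Perthes rabbits 1 to 5 and at 84.3, 84.1 and 78.0 CPM in the controls. The groups were separate, and the log2 fold change was -0.72 (SE 0.16, adjusted p = 0.0218).

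Of the 4 nonhomologous end-joining genes, 0 passed the edgeR test, with 1 at an unadjusted p below 0.05, and DESeq2 called 1 of them lower, *PRKDC* (adjusted p = 0.0163). Their median log2 fold change was -0.15. *PRKDC*, the catalytic subunit of the DNA-dependent protein kinase, was measured at 86.0, 92.0, 81.0, 86.0 and 78.1 CPM in Perthes rabbits 1 to 5 and at 111.2, 112.3 and 102.7 CPM in the controls. Every Perthes rabbit was below every control, by a small margin, and the log2 fold change of -0.36 (SE 0.13) had an adjusted p of 0.0938. *XRCC5*, the larger subunit of the Ku ring that holds broken ends, was at 40.3, 34.5, 20.1, 22.7 and 26.9 CPM in Perthes rabbits 1 to 5 and at 29.7, 21.0 and 25.4 CPM in the controls. Perthes rabbits 1 and 2 were above all controls and Perthes rabbit 3 below them (log2 fold change 0.19, SE 0.25, adjusted p = 0.640). *XRCC6*, the smaller Ku subunit, and *XRCC4*, the partner of the ligase, overlapped between groups, with log2 fold changes of -0.09 (SE 0.16, adjusted p = 0.725) and -0.20 (SE 0.21, adjusted p = 0.537).

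In mismatch repair, *MSH6*, which recognises mispaired bases, fell. It was measured at 44.3, 65.7, 41.6, 51.3 and 46.7 CPM in Perthes rabbits 1 to 5 and at 82.8, 78.9 and 76.3 CPM in the controls. The groups were separate, with a log2 fold change of -0.67 (SE 0.17, adjusted p = 0.0329). *PMS2*, which acts after recognition, overlapped between groups at 20.8 to 27.5 CPM and 25.8 to 31.9 CPM (log2 fold change -0.26, adjusted p = 0.275). *MSH6* did not pass when any 1 of Perthes rabbits 1, 3 and 5 or of the controls was left out, while its unadjusted p stayed below 0.05.

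Among the 6 checkpoint genes, 2 fell, both on the *ATR* side, whereas the values of *ATM* and *ATR* themselves overlapped between groups. The count was 1 without Perthes rabbit 3, Perthes rabbit 5 or control rabbit 3 and 0 without control rabbit 1 or 2. *CLSPN*, the adaptor through which *ATR* activates *CHEK1*, was measured at 7.40, 14.4, 7.27, 14.04 and 6.47 CPM in Perthes rabbits 1 to 5 and at 30.5, 27.9 and 29.5 CPM in the controls. Perthes rabbits 2 and 4 formed the upper pair of their group and were still below all controls (log2 fold change -1.56, SE 0.30, adjusted p = 0.0143). *CHEK1*, the effector kinase, was at 11.1, 11.5, 8.81, 9.57 and 10.5 CPM in Perthes rabbits 1 to 5 and at 16.0, 15.2 and 15.0 CPM in the controls. Both groups were narrow, and the log2 fold change was -0.58 (SE 0.15, adjusted p = 0.0352). *ATR*, the kinase that responds to stalled replication, was at 47.5, 45.7, 33.8, 38.9 and 37.6 CPM in Perthes rabbits 1 to 5 and at 49.0, 44.9 and 50.4 CPM in the controls, with a log2 fold change of -0.24 (SE 0.15, adjusted p = 0.309). *ATM*, the kinase that responds to double-strand breaks, was at 102.7, 68.2, 54.3, 57.1 and 73.2 CPM in Perthes rabbits 1 to 5 and at 58.5, 65.8 and 64.7 CPM in the controls. Perthes rabbit 1 stood above the rest, the other rabbits of both groups were intermixed, and the log2 fold change was 0.17 (SE 0.22, adjusted p = 0.618). *TOPBP1*, the activator of *ATR*, was separate between groups at 50.5 to 70.3 CPM and 87.6 to 94.1 CPM (log2 fold change -0.51, SE 0.15, adjusted p = 0.0524). *CHEK2*, the kinase downstream of *ATM*, overlapped at 1.86 to 3.21 CPM and 2.96 to 3.54 CPM (log2 fold change -0.45, adjusted p = 0.242).

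The place of each rabbit within its group was counted over the 20 genes that fell, and agreement in order between genes was not tested. Perthes rabbit 2 was the highest Perthes rabbit in 13 of the 20 genes, Perthes rabbit 4 in 5 and Perthes rabbit 1 in 2. Perthes rabbits 5, 1 and 3 were the lowest in 7, 6 and 6 genes, and Perthes rabbit 4 in 1. Control rabbit 1 was the highest control in 16 of the 20. In the RefSeq annotation, 24 of the 41 genes share bases with another gene, and reads from the shared stretch can be counted for either. Of the neighbours of the 20 genes that fell, 10 were tested, and the smallest adjusted p among them was 0.0826, for *ZNF276*, which overlaps *FANCA*. The 41 genes together took 0.0613% to 0.0840% of the counts of a Perthes library and 0.113% to 0.125% of those of a control library.

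Most proliferation and replication markers fell in Perthes disease as well. Of 12 proliferation markers, 11 fell (91.7%), with a median log2 fold change of -1.87, and of 14 replication markers 13 fell (92.9%), with a median of -1.36. Over all genes tested, 8.86% fell. The exceptions were *BIRC5* (adjusted p = 0.0638) and *CDT1* (adjusted p = 0.0506), both with negative log2 fold changes. The count of replication markers was 7 without Perthes rabbit 3 and 6 without Perthes rabbit 5. Without control rabbit 1 these counts were 3 and 1, and without control rabbit 2 they were 0 by edgeR, with all 12 and all 14 at an unadjusted p below 0.05. *MKI67*, a marker of cycling cells, was measured at 85.2, 315.0, 92.5, 149.9 and 85.7 CPM in Perthes rabbits 1 to 5 and at 781.7, 849.6 and 849.1 CPM in the controls (log2 fold change -2.51, SE 0.44, adjusted p = 0.0133). The 12 proliferation markers, none of them at 0 in any library, summed to 230.0, 660.3, 245.7, 355.9 and 249.4 CPM in Perthes rabbits 1 to 5 and to 1559, 1453 and 1453 CPM in the controls. Perthes rabbits 2 and 4 were thus the highest of their group. The sum over all 41 repair genes was highest in Perthes rabbits 2 and 1, at 837.4 and 775.3 CPM, and stood at 737.5 CPM in Perthes rabbit 4. The Perthes mean of the proliferation marker sum was 4.27-fold lower than the control mean. For the 14 replication markers, led by *MCM7*, it was 2.58-fold lower, and for the 41 repair genes 1.53-fold lower. On the mean log2 CPM over each list, the repair genes lay 0.02, 1.09, 0.23, 0.49 and 0.32 below the proliferation markers in Perthes rabbits 1 to 5 and 1.65, 1.53 and 1.54 below them in control rabbits 1 to 3. The part of cell division in the lower repair gene levels was not tested.

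**Figure D3:**
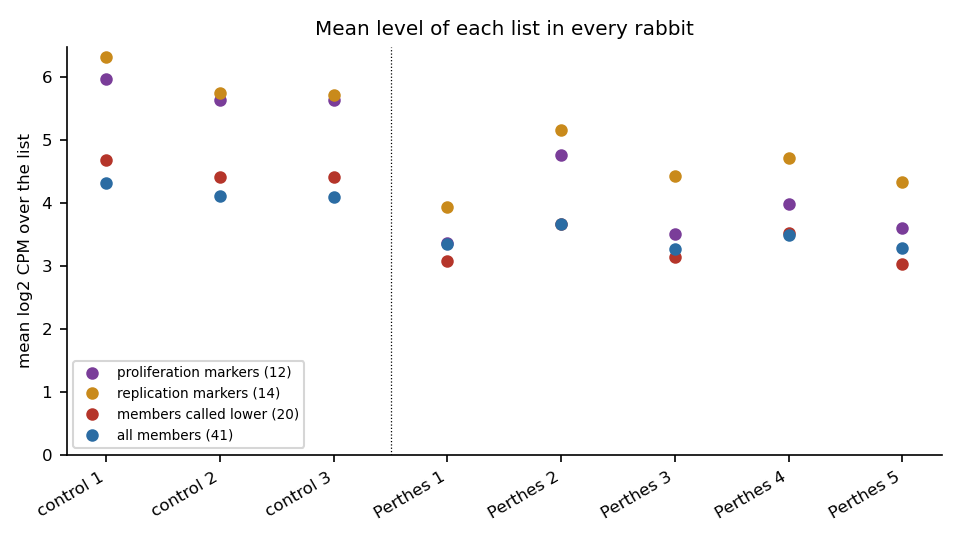
Mean log2 CPM (y axis) over the 41 repair genes, the 20 of them that fell, 12 proliferation markers and 14 replication markers in every rabbit (x axis). Each list is to be followed across the rabbits. The 41 repair genes and both marker lists are lower in each Perthes rabbit than in each control. So are the 20 that fell, but they were picked for lower levels in these same libraries, so this was fixed in advance. Perthes rabbit 2 is the highest Perthes rabbit in all 4 lists. The difference in group means is -0.76 for the repair genes and -1.90 for the proliferation markers.

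Summed levels of 3 lists of marrow cell markers were also lower in every Perthes rabbit than in every control, although most of their genes did not pass the test. Their counts are to be read against the 8.86% of all genes tested that fell, the 6.21% that rose and the 13.9% with every Perthes rabbit below every control. The 10 erythroid precursor markers, led by *SLC4A1*, summed to 674.1, 2936, 831.7, 1006 and 660.0 CPM in Perthes rabbits 1 to 5 and to 6537, 6484 and 5937 CPM in the controls. All 10 were lower in every Perthes rabbit than in every control, and 2 passed the test, one of them *TFRC*. The 4 neutrophil precursor markers found of 9, led by *LTF*, summed to 7.67, 737.4, 344.1, 652.2 and 64.6 CPM in Perthes rabbits 1 to 5 and to 9611, 2542 and 2422 CPM in the controls, and 1 of the 4 fell, *CEBPE*. The 4 megakaryocyte markers found of 5, led by *ITGA2B*, summed to 6.32 to 81.8 CPM in Perthes disease and 128.3 to 365.0 CPM in the controls, and 2 fell, one of them *ITGA2B*. Perthes rabbit 2 had the highest sum of its group in all 3 lists. In the other direction, 4 of 6 macrophage markers (*CD68*, *CD14*, *CSF1R* and *MRC1*), 2 of 6 osteoclast markers (*CTSK* and *DCSTAMP*) and 2 of 5 fibroblast markers (*COL3A1* and *POSTN*) rose. The macrophage markers, led by *CSF1R*, summed to 449.7 to 1651 CPM in Perthes disease against 369.6 to 430.7 CPM in the controls. The osteoclast markers, led by *CTSK*, summed to 1529 to 4369 CPM against 717.0 to 1259 CPM, and the fibroblast markers, led by *COL3A1*, to 14210 to 25730 CPM against 1445 to 8682 CPM. The sums of the B lineage, T cell, osteoblast and osteocyte, chondrocyte, endothelial and skeletal muscle markers overlapped between groups, and among their genes 1 passed the test, the B lineage marker *MS4A1*, which fell. The marker genes that passed were picked out after their values were seen. Of all these markers, *RAG2*, *VPREB1*, *GP9*, *GP1BA*, *MYLPF* and *MB* had 0 counts in at least 1 library and none had 0 in all 8. The part of cell composition in the repair gene levels was not tested.

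The other genes of the same pathways were compared by lists written by symbol, to be read against the 8.86% of all genes tested that fell and the 6.21% that rose. Of 27 other recombination and Fanconi genes 4 fell, which is 14.8%, with a median log2 fold change of -0.29. Among them, *FIGNL1*, which acts in recombination (log2 fold change -1.16, adjusted p = 0.0132), *DNA2*, a resection nuclease (log2 fold change -2.06, adjusted p = 0.0172), and *RFWD3*, a ubiquitin ligase (log2 fold change -0.90, adjusted p = 0.0179), had separate groups. Of 5 other mismatch repair genes and 17 nucleotide excision repair genes, 0 passed the edgeR test in either direction, with medians of -0.35 and 0.05. At an unadjusted p below 0.05 stood 3 mismatch repair genes, all lower, and 2 nucleotide excision repair genes, both higher, and DESeq2 called 1 lower and 2 higher.

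Of 10 other end-joining genes 1 fell, *TDP1*, which clears blocked ends (log2 fold change -0.92, adjusted p = 0.0150), and the median was -0.23. That is 10% of the list, near the share of all genes. Base excision repair mends single damaged bases, and 4 of its 18 genes (22.2%) fell while 1 rose, with a median of -0.26. Of those that fell, *POLE* (log2 fold change -1.56, adjusted p = 0.0154), *FEN1* (-1.32, adjusted p = 0.0210) and *LIG1* (-1.72, adjusted p = 0.0229) also act in DNA replication, as a polymerase, a flap nuclease and a ligase. The other was *UNG*, which removes uracil from DNA (log2 fold change -0.99, adjusted p = 0.0284). *PARP3*, a relative of *PARP1*, was the gene that rose, from 14.4 ± 3.18 CPM (SD, n = 3) in the controls to 39.3 ± 12.6 CPM (SD, n = 5) in Perthes disease (log2 fold change 1.45, adjusted p = 0.0177 by edgeR). Among 12 translesion and postreplication genes 2 fell (16.7%), with a median of -0.08. These were *RAD18*, which ubiquitinates *PCNA* (log2 fold change -1.26, adjusted p = 0.0150), and *USP1*, which removes ubiquitin from *FANCD2* and *PCNA* (log2 fold change -0.72, adjusted p = 0.0235). Of 19 other checkpoint and signaling genes 8 fell (42.1%), with a median of -0.54. The 3 of smallest adjusted p were *WEE1*, a kinase that restrains entry into mitosis (log2 fold change -1.04, adjusted p = 0.0134), and *CDC25A* and *CDC25C*, phosphatases that promote the cell cycle (-1.85, adjusted p = 0.0151, and -2.03, adjusted p = 0.0182). These counts also rested on single rabbits. In edgeR without control rabbit 1 they were 0 in all 5 lists, where the unadjusted p was below 0.05 for 5 lower recombination and Fanconi, 2 lower end-joining, 5 lower and 1 higher base excision, 2 lower and 1 higher translesion and 10 lower checkpoint genes. Without control rabbit 2 they were 0 in all 5 as well, with 6 lower, 1 lower, 5 lower and 1 higher, 3 lower and 10 lower genes at an unadjusted p below 0.05. The checkpoint count was 3 without Perthes rabbit 3 and 2 without Perthes rabbit 5, and the base excision and translesion counts of lower genes were 1 without either. Without control rabbit 3 the translesion count was 1. With all 8 libraries DESeq2 called 5, 1, 5, 2 and 10 genes lower in the 5 lists.

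Of 21 damage-response target genes 5 rose and 1 fell, with a median log2 fold change of 0.59. Over all genes tested, 6.21% rose and 8.86% fell. *CDKN1A*, an inhibitor of the cell cycle kinases, was at 236.2, 175.8, 226.1, 146.9 and 243.5 CPM in Perthes rabbits 1 to 5 and at 38.7, 42 and 57.6 CPM in the controls. Perthes rabbits 2 and 4 were the lowest of their group here, and all 5 were above the controls (log2 fold change 2.16, SE 0.25, adjusted p = 0.0118). *PLK3* (log2 fold change 1.66, adjusted p = 0.0118) and *PHLDA3* (1.21, adjusted p = 0.0120), an inhibitor of AKT signaling, rose too, as did *ZMAT3* (1.60, adjusted p = 0.0165) and *GADD45G* (1.07, adjusted p = 0.0293). *PPM1D*, a phosphatase that turns off damage signaling, fell (log2 fold change -0.70, adjusted p = 0.0191), and did not pass without Perthes rabbit 3, Perthes rabbit 5, control rabbit 1 or control rabbit 2. The number of targets that rose was 11 with DESeq2, 12 without Perthes rabbit 4, 3 without control rabbit 1 and 0 without control rabbit 2, where 12 had an unadjusted p below 0.05. *XPC* and *DDB2* stand in both this list and that of nucleotide excision repair.

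**Figure D4:**
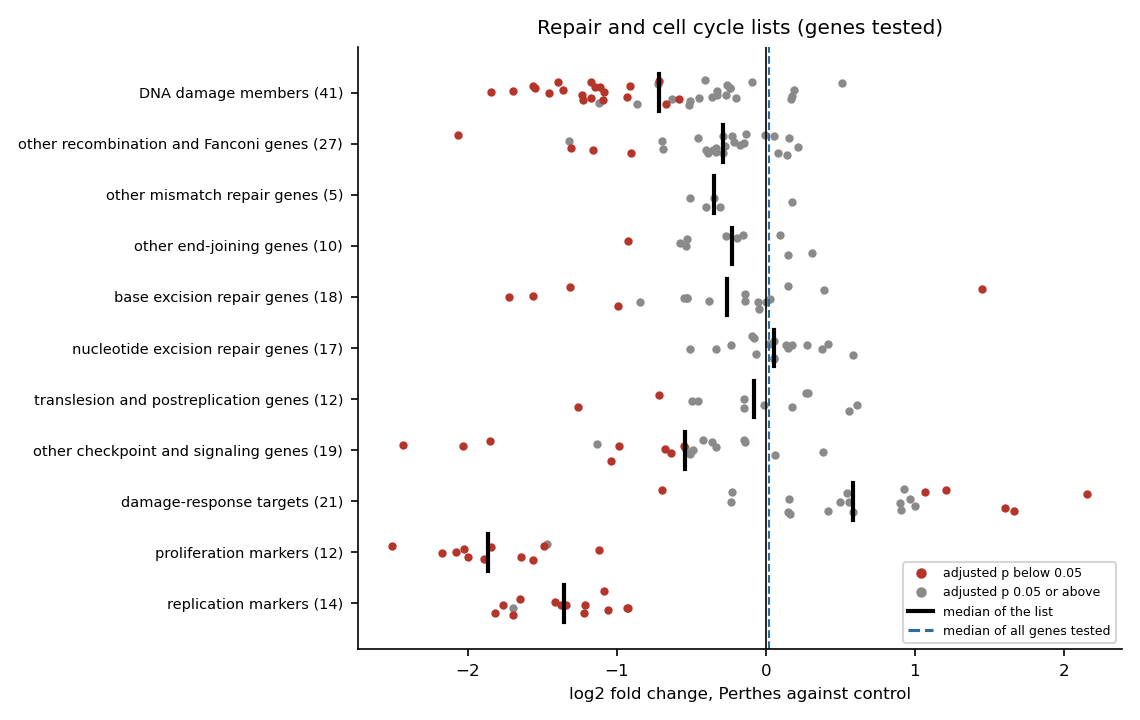
Log2 fold change of Perthes disease against control (x axis) for each tested gene of the 41 DNA damage genes and 10 other lists (rows, number of genes in parentheses), red for an adjusted p below 0.05, with a black bar for the median of each list and a dashed line for the median of all genes tested. The proliferation and replication markers have the lowest medians, -1.87 and -1.36, and the damage-response targets the highest, 0.59.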

How the data were processed

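For total RNA, the authors filtered the reads, mapped them and quantified genes, for which the submitters' processing notes name HTSeq 1.99.2, RSEM 1.1.17 and HISAT2 2.0.4. The gene table deposited by the authors holds expected counts, not normalized and not whole in 10.0% to 10.7% of values per library. Among the 41 genes, only 1 value was not whole. The library kit keeps strand. The authors took genome and annotation from an NCBI rabbit assembly. Whether counting used strand and the age of the rabbits at sampling are not given in the sources used here. By its code the last control is number 3, although its title gives another number. Another 8 columns of per-sample values repeat those used and were left out. The small RNA libraries and the deposited annotation terms were not used here.

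Expected counts were rounded before testing. The 8 total RNA libraries were scaled by TMM, filtered with filterByExpr and compared with the quasi-likelihood F-test of edgeR 4.0.16 (R 4.3.3), and p-values were adjusted by the method of Benjamini and Hochberg across 15305 genes. As standard error was taken the log2 fold change divided by the square root of F, and CPM were scaled by the TMM factors. Mean log2 CPM over a list used a prior count of 2. A single count was worth 0.0333 to 0.0375 CPM, and no value of the 41 genes lay at or under 3 counts, and the common biological coefficient of variation was 0.361. The edgeR fit was run on simulated counts. Of 50 genes changed at each size, 7 were called at a log2 fold change of 1, 39 at 2, 44 at 3 and 49 at 4. Of 15105 unchanged genes, 3 were called. Most changes of log2 1 were thus missed, so a gene that did not pass may still have changed. Alternatives were DESeq2 1.42.0, its size factors in edgeR, library totals, other filters and thresholds, a replicate block, and leaving out each rabbit. Figures were drawn with matplotlib 3.10.9.

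The genes and lists were chosen with earlier results of these data known. Values in every rabbit are given for the 20 genes of smallest adjusted p that passed 0.05, for genes with a positive log2 fold change and for BRCA1, RAD51AP1, FANCD2, CHEK1, ATM, ATR, MSH6, PRKDC and PARP1. From each other pathway list up to 3 genes per direction of smallest adjusted p past 0.05 are named, together with CDKN1A and MKI67. In lists with 5 or fewer genes past the test the others are named too, which was decided after their values were seen. Some genes of these lists are counted but not reported here by name. Overlaps between genes were read from RefSeq (assembly mOryCun1.1), which is not the assembly the authors used and may place neighbours differently, and to which all 41 genes were matched by gene identifier. Promoter and protein sequences were not used here, and the motif counts planned on them were not run.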

Additional observations from a re-analysis of the deposited data

Results flagged for a closer look

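Of the 41 repair genes, 3 had 1 rabbit far from the others of its group by Dixon's criterion at the 95% level, which chance alone exceeds in about 1 of 20 groups. In all 3 it was Perthes rabbit 1, and it was high. *PALB2* stood at 10 CPM in that rabbit against 6.13 to 7.15 CPM in the other Perthes rabbits, with a gap of 0.737 of the whole range. *RAD50* stood at 24.7 CPM against 11.2 to 14.8 CPM, with a gap of 0.727. *NBN* stood at 35.2 CPM against 16.8 to 21.2 CPM, with a gap of 0.761. Without Perthes rabbit 1 the log2 fold change was -0.46 for *PALB2* (adjusted p = 0.0919), -0.85 for *RAD50* (adjusted p = 0.0317) and 0.26 for *NBN* (adjusted p = 0.340) in edgeR. Control groups of 3 were not examined in this way.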

How the results depend on the processing

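The count of repair genes that fell, 20 by edgeR, was 19 to 21 under the other scalings and filters and 25 by DESeq2. Leaving out 1 rabbit gave 0 to 20 for these genes, 0 to 1628 for all genes lower and 0 to 1267 for all genes higher. The lowest values came without control rabbit 2 (unadjusted p below 0.05 for 25 repair genes, 2098 genes lower and 1624 higher) and the next without control rabbit 1 (4, 184 and 73). Without Perthes rabbit 3 the counts were 13, 646 and 385, and without Perthes rabbit 5 they were 11, 550 and 351. DESeq2 called 1720 genes higher, against 951 by edgeR. At the log2 fold change of 2 and adjusted p of 1e-05 that the study used, 0 repair genes passed by edgeR and 0 by DESeq2. In edgeR no gene of any kind could pass, as the smallest adjusted p over all genes tested was 0.0118. The lowest log2 fold change of the 41 genes in that fit was -1.84. The edgeR count of 0 thus shows nothing particular to the repair genes. With the replicate number as a block, 0 repair genes, 0 genes lower and 0 genes higher passed in edgeR, with 18, 1648 and 1504 at an unadjusted p below 0.05 and a smallest adjusted p of 0.0573. The numbers share only a label. Deviations of rabbits with the same number correlated at -0.317, 0.161 and -0.238 over 3 pairs, whereas the 12 pairs of unlike number averaged 0.0319. The median log2 fold change of the repair genes ranged from -0.81 to -0.55, and the sign of each gene was kept under every alternative except for *XRCC6*, which went from -0.09 to 0.035 without control rabbit 1 and ranged from -0.18 to 0.035 when rabbits were left out. Over the 41 genes and 14 alternatives, 79 values lost a pass of the threshold and 8 gained one. The cause of these changes was not tested, beyond the fewer rabbits of the fits that left 1 out. No value of the 41 genes was at or under 3 counts, and the part of depth in these calls was not tested.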

Other observations

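The ratio of 2 related repair genes was computed for 8 pairs, picked after the values were seen and given with no test, and the groups were separate in 3 and overlapped in 5. The ratio of *NBN* to *RAD50*, both of the complex that binds broken ends, was 1.43, 1.29, 1.56, 1.13 and 1.44 in Perthes rabbits 1 to 5 and 0.664, 0.605 and 0.606 in control rabbits 1 to 3. It was higher in every Perthes rabbit, including Perthes rabbit 1, whose levels of both genes stood apart. The ratio of *BLM* to its partner *RMI1* was 0.991, 1.86, 1.68, 1.66 and 1.15 in Perthes disease and 4.15, 3.36 and 3.26 in the controls, lower in every Perthes rabbit. The ratio of *ATM* to *ATR* was 1.47 to 2.16 in Perthes disease and 1.19 to 1.46 in the controls, and Perthes rabbits 4 and 2 lay just above the highest control. The ratios of *BRCA1* to *BARD1*, *FANCD2* to *FANCI*, *XRCC5* to *XRCC6*, *RMI2* to *RMI1* and *CHEK1* to *CHEK2* overlapped between groups. Ratios of counts depend on transcript length, so their change between rabbits can be read but not their size.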
